A study of Mus musculus with 32 samples.

Results

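The genes described here are 10 interferon-inducible GTPase genes of the mouse, found by symbol among the 29511 genes of the deposited count and FPKM tables. They were the immunity-related GTPases (IRGs) *Irgm1*, *Irgm2*, *Igtp*, *Iigp1*, *Tgtp1*, *Tgtp2*, *Gm4951* and *Gm12185*, and the very large inducible GTPases *Gvin1* and *Gm4070*. They were measured by stranded, paired-end RNA sequencing in 32 samples from female FVB/N mice, 12 tumors and 20 lungs. The mice were *Clic4* knockout (KO), in which a segment around exon 2 is excised in every cell of the animal, or wildtype (WT) littermates. Tumors came from orthografts of 6DT1 cells, a mouse mammary tumor line from an MMTV-*Myc* transgenic model, placed in the mammary fat pad and collected at day 14, 6 from KO and 6 from WT hosts. The orthografted cells carried intact *Clic4* in both hosts, so the host alone differed and each tumor mixed tumor cells of 1 line with host cells. Lungs of tumor bearers were taken at day 14, a stage the study calls pre-metastatic, 6 from KO and 6 from WT mice, and control lungs came from mice with no orthograft, 4 of each genotype. In bulk samples of this kind, fewer cells of a type and less RNA per cell cannot be told apart.

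IRGs are made in response to interferons, above all interferon-γ, which acts through the receptor chains Ifngr1 and Ifngr2 and the kinases Jak1 and Jak2. Effector IRGs load onto the vacuoles that hold intracellular pathogens and break them, while regulator IRGs sit on the cell's own membranes and hold the effectors inactive there. The very large inducible GTPases are strongly interferon-induced cytosolic proteins whose function is less well known. Mouse cells of many types, including macrophages, fibroblasts and epithelial cells, make IRGs when they meet interferon.

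The family is split by the nucleotide-binding loop, and the codon that splits it is shown for the 8 members on chromosomes 7 and 11, with the codon in capitals and the lower-case bases around it in the sense direction (GENCODE M21 coding transcripts, GRCm38). One such stretch is shown for each gene, and *Gm12185* has a further one at codon 479, with the lysine codon AAA, that is not shown. Among IRGs, regulators carry a methionine codon there and effectors a lysine codon, a split that is not applied here to *Gvin1* and *Gm4070*.
*Irgm1*, *Irgm2* and *Igtp*: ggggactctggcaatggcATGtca
*Tgtp1* and *Tgtp2*: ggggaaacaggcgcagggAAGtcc
*Gm12185*: ggggagactggggctggaAAGtcc
*Gvin1* and *Gm4070*: ggcctgcagagctcagggAAGtct

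Promoters were in the reference table for 6 of the 10 members, and a stretch of each is shown because all 6 held the core of the interferon-stimulated response element (ISRE), the letters GAAANNGAAA, within 250 bases upstream of the RefSeq start (GRCm38.p6). Capitals mark the ISRE core and, in 5 of the 6, the core of the gamma-activated site (GAS, TTCNNNGAA) that ends 2 bases before it.
*Irgm1* (chr11:48871421-48871475, minus strand): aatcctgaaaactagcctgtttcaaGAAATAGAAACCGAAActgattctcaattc
*Irgm2* (chr11:58214877-58214947, plus strand): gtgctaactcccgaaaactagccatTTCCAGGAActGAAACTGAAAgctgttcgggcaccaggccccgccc
*Igtp* (chr11:58199486-58199555, plus strand): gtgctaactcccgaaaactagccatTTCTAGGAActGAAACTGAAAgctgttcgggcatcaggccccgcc
*Tgtp1* (chr11:48992289-48992359, minus strand): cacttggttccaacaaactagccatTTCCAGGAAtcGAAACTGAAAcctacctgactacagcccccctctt
*Tgtp2* (chr11:49064248-49064318, minus strand): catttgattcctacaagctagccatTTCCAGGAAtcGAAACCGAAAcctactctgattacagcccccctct
*Gm12185* (chr11:48927223-48927293, minus strand): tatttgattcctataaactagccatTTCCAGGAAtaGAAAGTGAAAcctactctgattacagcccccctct

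Over all 32851 promoters in the table, searched over the same 250 bases on both strands, 2.98% held the ISRE core and 7.02% held the GAS core. The GAS core followed after 2 bases by the ISRE core stood in 5 promoters of the table, those of *Irgm2*, *Igtp*, *Tgtp1*, *Tgtp2* and *Gm12185*, and this joint pattern was chosen after the sequences had been read. *Irgm1* differed from the other 5 in having 2 overlapping ISRE cores, at -30 and -24 from the start, and in matching only 5 of the 6 fixed GAS letters at the corresponding place. These windows are related copies. Over the 60 bases that end with the last ISRE core, *Irgm2* and *Igtp* shared 96.7% of bases and *Tgtp2* and *Gm12185* shared 90.0%, whereas *Irgm1* shared 45.0% to 51.7% with the others. Among genes of the comparison lists with a promoter in the table, 5 of 5 guanylate-binding protein genes, 6 of 11 type I interferon-induced genes, 2 of 15 interferon pathway genes and 0 of 7 autophagy partner genes held an ISRE core. The GAS core did not follow that order, with 2 of 5, 2 of 11, 5 of 15 and 2 of 7 genes of the same lists. In these lists a gene counted once if any of its promoters held the core, whereas the overall shares count promoters. A match to these letters is a description of the sequence and not of binding.

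**Figure D1:**
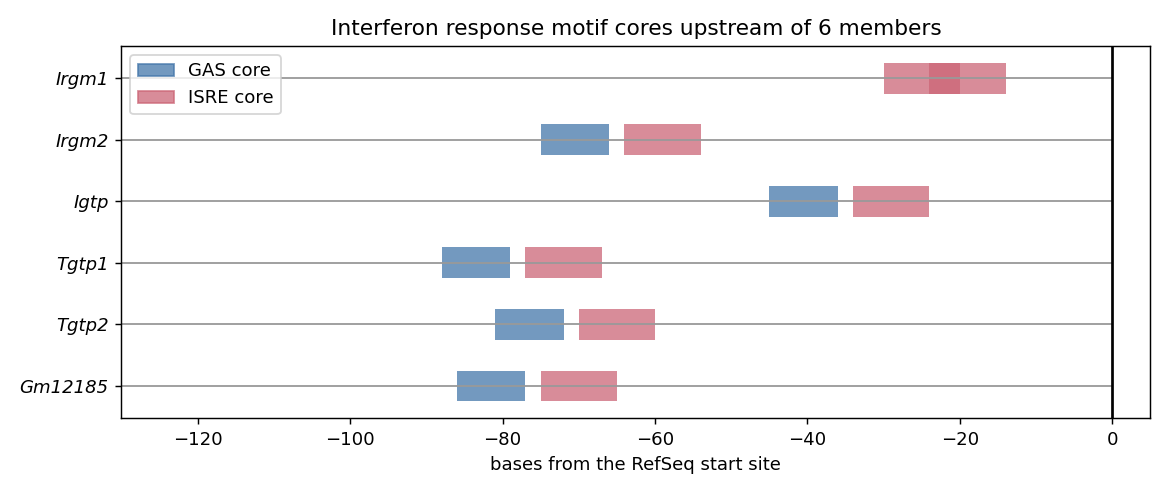
Position of the motif cores upstream of 6 members, in bases from the RefSeq start at 0. Blue boxes are GAS cores and red boxes ISRE cores. In *Irgm2*, *Igtp*, *Tgtp1*, *Tgtp2* and *Gm12185* a GAS core precedes the ISRE core by 2 bases, and *Irgm1* has 2 overlapping ISRE cores starting at -30 and -24.

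By GENCODE M21 (GRCm38), *Irgm1* (ENSMUSG00000046879, chr11:48861968-48871683), *Gm12185* (ENSMUSG00000048852, chr11:48904656-48992226), *Tgtp1* (ENSMUSG00000078922, chr11:48985327-48994172) and *Tgtp2* (ENSMUSG00000078921, chr11:49057194-49064206) lie on the minus strand of 1 cluster. *Igtp* (ENSMUSG00000078853, chr11:58199556-58207591) and *Irgm2* (ENSMUSG00000069874, chr11:58199618-58222782) lie on the plus strand of another and overlap. *Gm4951* (ENSMUSG00000073555, chr18:60212080-60247820) and *Iigp1* (ENSMUSG00000054072, chr18:60376027-60392634) share the plus strand of chromosome 18, and *Gm4070* (ENSMUSG00000078606, chr7:105895139-105953967) and *Gvin1* (ENSMUSG00000045868, chr7:106156556-106215326) the minus strand of chromosome 7. Some members cannot be separated well by sequence. Of the 50-base windows of *Tgtp1* transcripts, 89.4% also occur in *Tgtp2*, and of those of *Gvin1*, 98.3% also occur in *Gm4070*, so the split of reads within each of these pairs is uncertain. The annotated *Gm12185* overlaps *Tgtp1* on the same strand and shares 17.2% of its windows with other genes.

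Gene counts summed to between 4446323 and 8318711 per sample (median 5384934). *Clic4*, the targeted gene, lay between 55.4 and 74.6 FPKM (fragments per kilobase of transcript, scaled to the size of the library) in the KO lungs and between 155 and 230 FPKM in the WT lungs. In the tumors, where the orthografted cells express it, *Clic4* was 65.3 ± 4.05 FPKM (SD, n = 6) in KO and 77.5 ± 2.66 FPKM (SD, n = 6) in WT hosts. The genotypes did not overlap in either tissue. Lung epithelial markers summed to at most 2.95 FPKM in the tumors and to at least 32310 FPKM in the lungs.

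The first comparison asked how the tumor differed with the genotype of its host. All 10 GTPase genes were higher in tumors of KO hosts, with log2 fold changes between 1.18 (*Irgm1*) and 3.11 (*Tgtp1*) and a median of 2.20, beside a median of -0.01 over the 13830 genes tested. Each passed a false discovery rate (FDR) under 0.05 and a 2-fold change by edgeR's quasi-likelihood test with Benjamini-Hochberg adjustment over all genes tested, limits that 1.01% of the genes tested passed in the higher direction and 0.0506% in the lower. No sample of the KO hosts overlapped with the WT hosts for 9 of the 10, in CPM (counts scaled to the size of the library) or in FPKM, with *Irgm1* the exception, whereas 1.49% of all genes tested had every KO tumor above every WT tumor.

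Among the regulators, *Irgm1*, which guards the cell's own membranes and without which mice handle mycobacteria poorly, measured 21.7, 25 and 36.9 FPKM (lowest, median, highest) in WT-host tumors and 34.4, 60.5 and 90.8 FPKM in KO-host tumors. The ranges overlapped, with 4 of 6 KO-host tumors above all WT-host tumors, and the log2 fold change was 1.18 (SE 0.22, FDR 0.00619 by edgeR). *Irgm2*, found chiefly at the Golgi, went from 8.35, 10.5 and 13.2 FPKM in WT to 18.8, 30.3 and 43.3 FPKM in KO hosts, a log2 fold change of 1.54 (SE 0.18, FDR 0.000283). *Igtp*, the regulator of the endoplasmic reticulum and lipid droplets, went from 14.0, 16.6 and 27.0 FPKM to 36.0, 69.3 and 113 FPKM, a log2 fold change of 2.0 (SE 0.25, FDR 0.000322). *Irgm1* thus had the smallest fold change of the 10 and the only overlap between the host groups.

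Among the effectors, *Iigp1*, whose product coats and disrupts the *Toxoplasma* vacuole, had the highest mean level of the 10 in KO-host tumors, 105 ± 35.9 FPKM (SD, n = 6) against 20.3 ± 11 FPKM (SD, n = 6) in WT hosts. Its lowest, median and highest values were 11.3, 17.0 and 40.5 FPKM in WT and 56.1, 104 and 156 FPKM in KO hosts, and its log2 fold change was 2.42 (SE 0.30, FDR 0.00035). The T cell-specific GTPases *Tgtp1* and *Tgtp2*, named for the cells in which they were first described, are nearly identical effectors made by many interferon-treated cells. *Tgtp1* measured 1.14, 3.17 and 5.32 FPKM in WT and 13.0, 27.4 and 50.4 FPKM in KO hosts, on 19 to 79 and 155 to 829 counts per sample. *Tgtp2* measured 5.00, 8.97 and 10.1 FPKM in WT and 27.5, 50.8 and 70.4 FPKM in KO hosts. Both were apart between the host groups, with log2 fold changes of 3.11 (SE 0.38, FDR 0.000283) and 2.59 (SE 0.23, FDR 4.33e-05), and the sum of their counts, which does not depend on how reads were split between them, changed by 2.76 (FDR 7.41e-05).

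*Gm4951* and *Gm12185* are IRG-family loci known mainly from sequence. *Gm4951* measured 2.39, 3.08 and 5.00 FPKM in WT-host tumors and 11.9, 18.8 and 29.3 FPKM in KO-host tumors, a log2 fold change of 2.50 (SE 0.26, FDR 8.87e-05). *Gm12185* was the least abundant member in every group, at 0.05, 0.385 and 0.50 FPKM in WT and 1.22, 1.90 and 2.97 FPKM in KO hosts. Its log2 fold change of 2.40 (SE 0.34, FDR 0.00097) rested on 2 to 15 counts per WT-host tumor and 19 to 98 per KO-host tumor. Neither locus had a KO-host tumor within the WT range.

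The very large GTPases had smaller log2 fold changes than 7 of the 8 IRGs, a difference between genes that was not tested. *Gvin1* went from 10.1, 17.1 and 21.2 FPKM in WT hosts to 29.4, 40.2 and 54.2 FPKM in KO hosts, a log2 fold change of 1.43 (SE 0.18, FDR 0.000452). *Gm4070* went from 15.1, 17.4 and 30.3 FPKM to 35.5, 54.8 and 63.1 FPKM, a log2 fold change of 1.5 (SE 0.20, FDR 0.000536). The ranges were apart for both, and their summed counts changed by 1.46 (FDR 0.00039).

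**Figure D2:**
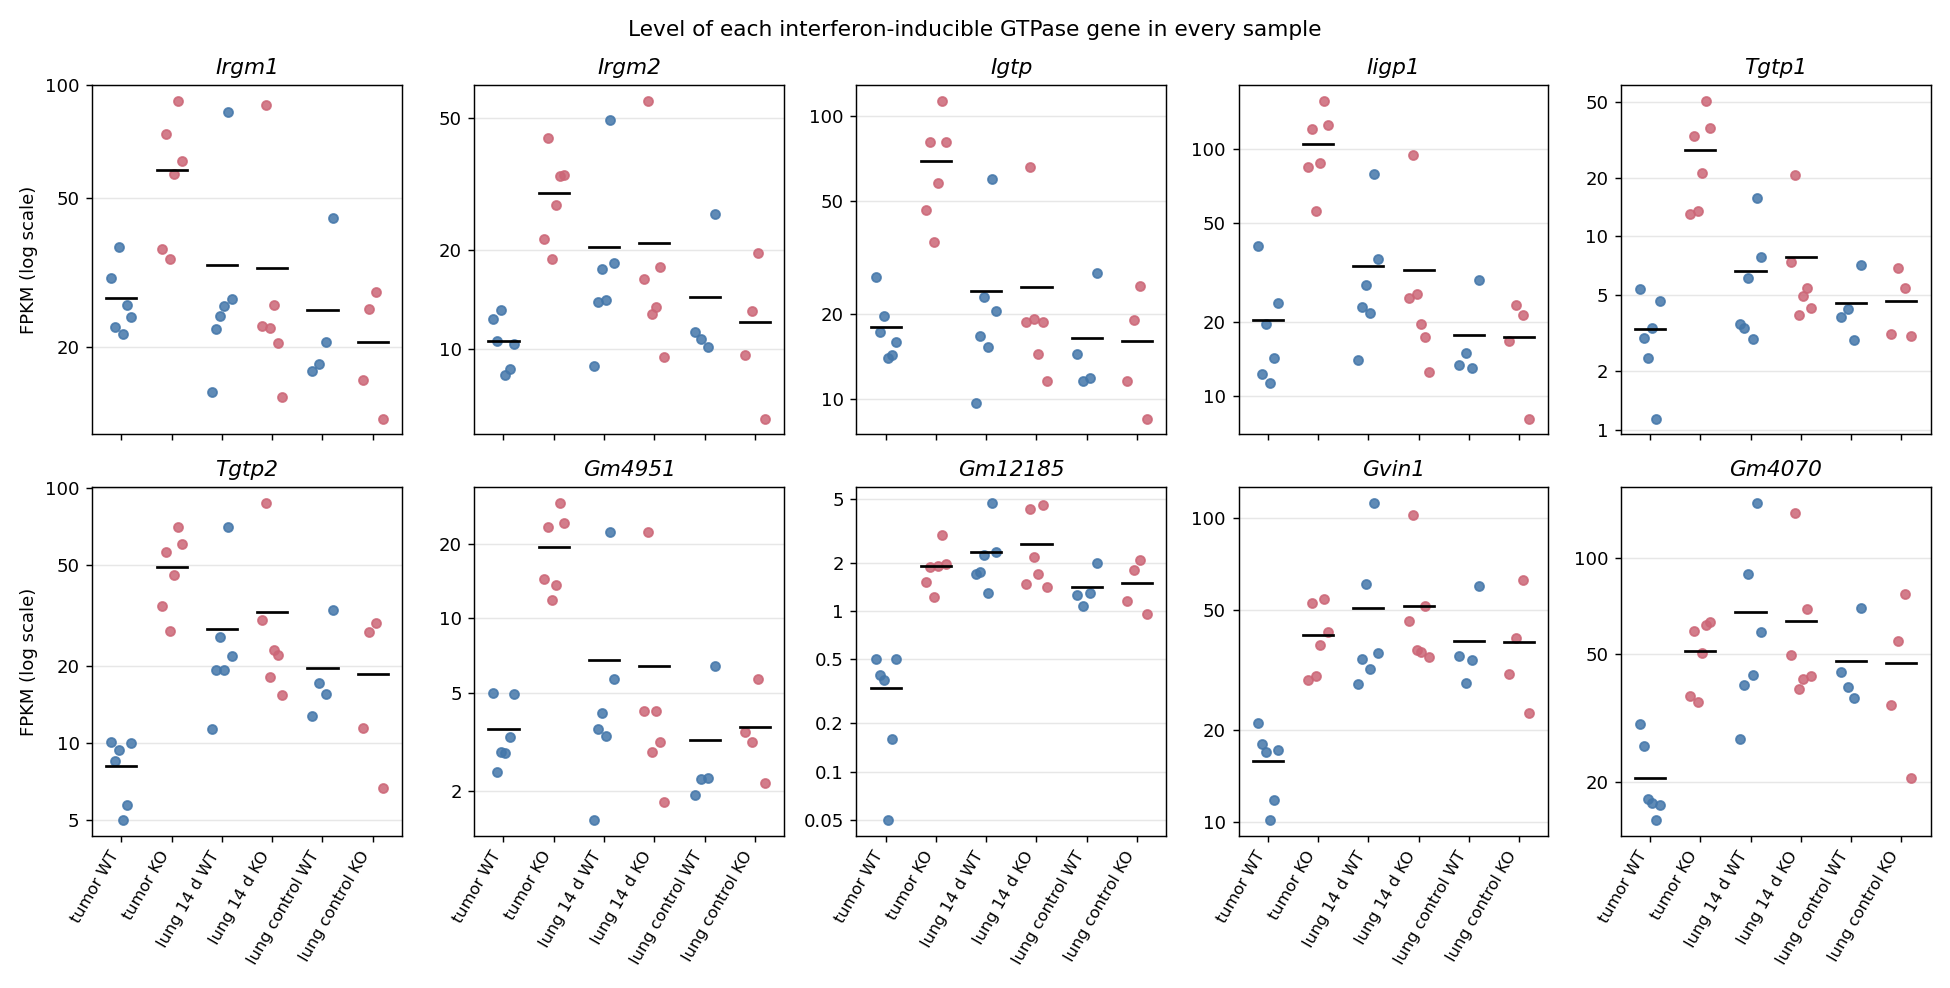
FPKM of each gene (log axis) in every sample of the 6 groups, with WT in blue, KO in red and the group mean as a black bar. KO-host tumors lie above all WT-host tumors for every gene but *Irgm1*, and single lungs lie far above the rest of their group, such as *Iigp1* at 94.9 FPKM in a KO lung at day 14.

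The members moved together from tumor to tumor within a host genotype. KO-host tumor 5 held the highest value of its group for 8 of the 10 genes and KO-host tumor 3 the lowest for 8. In WT hosts, tumor 1 held the highest for 8 and tumor 4 the lowest for 7. Cell type markers moved in some of these same tumors. KO-host tumor 5 had the highest leukocyte (224 FPKM) and macrophage (882 FPKM) marker sums of its group. WT-host tumor 1 had the highest macrophage (676 FPKM), natural killer (53.3 FPKM) and dendritic cell (14.4 FPKM) sums of its group, and WT-host tumor 4 the lowest leukocyte (56.0 FPKM), macrophage (292 FPKM) and dendritic cell (8.82 FPKM) sums. Fibroblast marker sums were highest in KO-host tumor 5 (769 FPKM) and WT-host tumor 1 (745 FPKM) and lowest among WT-host tumors in tumor 4 (387 FPKM). For the immune sums, KO-host tumor 2 went the other way. Its leukocyte (145 FPKM), macrophage (546 FPKM), natural killer (31.6 FPKM) and dendritic cell (13.15 FPKM) sums were the lowest of its group. It held the group's highest *Irgm2* (43.3 FPKM), and its *Irgm1* (73.9 FPKM) and *Iigp1* (121 FPKM) were above their group medians. WT-host tumor 2 had the highest leukocyte (186 FPKM) and T cell (23.9 FPKM) sums of its group and the lowest *Gm4951* (2.39 FPKM). The T cell sum was the lowest of its group in KO-host tumor 3 (18.1 FPKM), above the group median in KO-host tumor 5 (29.7 against 28.4 FPKM) and below it in WT-host tumor 4 (9.31 against 11.1 FPKM), but also slightly below it in WT-host tumor 1 (10.8 FPKM). Their part in the shared movement of the GTPase genes was not tested. Over the 12 tumors, with each gene's log2 level taken as its deviation from its group mean, Pearson's r between the 45 pairs of members ran from 0.56 (*Gm4951* and *Gm12185*) to 0.94 (*Tgtp2* and *Gvin1*), with a median of 0.77. All points share the same 12 libraries, and these values are descriptions without a test. Of 13820 other genes ranked by likeness to the mean member profile, the 10 closest included *B430306N03Rik* (r = 0.97 over 12 tumors), *H2-T23* and *Psmb9* (0.96 each), *Pla2g16*, *Sppl2a*, *Gbp6* and *Ly6a* (0.95 each), *Gbp9* (0.94) and *Gbp4* (0.93). *H2-T23* encodes a nonclassical MHC class I molecule and *Psmb9* an immunoproteasome subunit. By Spearman's rho, 7 of the 10 were again among the 10 closest.

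The lists of related genes are given by their counts in the same tumor comparison. The guanylate-binding proteins (GBPs) work beside the IRGs at pathogen vacuoles, and all 12 tested entries for 11 symbols rose, from 1.12 (*Gbp7*) to 2.90 (*Gbp8*) with a median log2 fold change of 2.14. Of 12 other IRG and very large GTPase loci, 9 were tested and 2 passed the limits, *Gm4841* (3.08) and *F830016B08Rik* (1.71). The log2 fold change was above 0 for 8 of these 9, with a median of 0.84. By edgeR 7 of the 9 had an unadjusted p under 0.05, and DESeq2 called 3. *Irgq*, an IRG-like gene with no known interferon induction, had a log2 fold change of -0.13 (FDR 0.638).

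Of 18 genes of the interferon pathway, 16 were tested, with a median log2 fold change of 0.32, and *Irf1* and *Socs1* were among those that passed the limits. All 16 were above 0, and 11 had an unadjusted p under 0.05 by edgeR. Among ligands, *Ifng*, which encodes interferon-γ, was too low to be tested, at 0 to 0.53 FPKM in WT-host and 0.43 to 2.60 FPKM in KO-host tumors. Among receptors and kinases, *Ifngr1* (0.27, FDR 0.309), *Ifngr2* (0.21, FDR 0.363) and *Jak1* (0.08, FDR 0.505) did not pass, and *Jak2* (0.50, FDR 0.00163) passed the FDR but not the fold limit. Among transcription factors, *Irf1*, which interferon induces early and which binds the ISRE, rose by 1.16 on the log2 scale (FDR 4.33e-05 by edgeR), from 32.4, 34.4 and 40.6 FPKM in WT hosts to 59.8, 79.5 and 84.6 FPKM in KO hosts. *Stat2* (0.99, FDR 0.0135) fell short of the fold limit, and *Irf9* (0.34, FDR 0.207) did not pass.

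Among inhibitors of the pathway, *Socs1*, which restrains interferon-γ signaling, rose by 1.5 (FDR 0.00188), from 1.56, 2.35 and 3.04 FPKM to 4.34, 6.37 and 8.85 FPKM. *Socs3*, which restrains cytokine receptors, had a log2 fold change of 0.73 (FDR 0.00529), under the fold limit, and *Ptpn2*, a phosphatase that acts on the kinases, one of 0.16 (FDR 0.476). *Usp18*, which restrains the type I interferon receptor, measured 12.6 to 23.2 FPKM in WT-host and 11.9 to 26.8 FPKM in KO-host tumors, a log2 fold change of 0.25 (FDR 0.633). None of the 14 type I interferon-induced genes passed the limits by edgeR or by DESeq2. Their log2 fold changes ran from 0.01 to 0.78 with a median of 0.46, and 2 had an unadjusted p under 0.05. KO-host tumor 2 stood apart for some of them. *Ifit1* measured 16.4 FPKM there against 3.68 to 5.64 FPKM in the other KO-host tumors, and *Isg15* 62.95 against 21.05 to 30.82 FPKM. *Rsad2* (7.94 FPKM) was not highest there but in KO-host tumor 5 (9.98 FPKM). This list was not retested without that tumor 2. Of 10 autophagy genes whose products work with the regulators, 0 passed by either tool, with a median of 0.05 and 1 at an unadjusted p under 0.05.

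**Figure D3:**
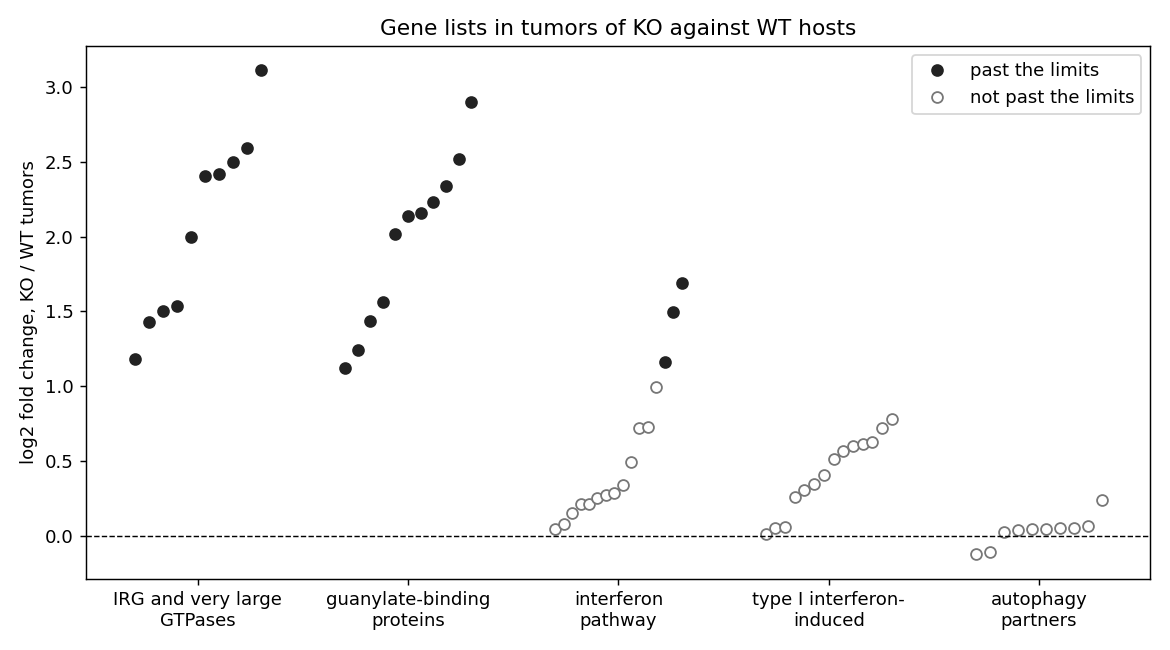
Log2 fold change of tumors from KO over WT hosts, 1 point per gene symbol, in order of value within each list. Filled points passed an FDR under 0.05 and a 2-fold change. All GTPase and GBP points are filled (1.12 to 3.11), as are some interferon pathway genes such as *Irf1* (1.16), and no type I interferon-induced or autophagy gene is.

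Cell type markers were set beside these results. General leukocyte markers summed to 56.0, 107 and 186 FPKM (lowest, median, highest) in WT-host and 145, 193 and 224 FPKM in KO-host tumors, with 3 of 3 above 0 in log2 fold change and 0 past the limits. Mammary tumor epithelium markers summed to 333, 362 and 459 FPKM in WT-host and 287, 330 and 353 FPKM in KO-host tumors, with 0 of 4 past the limits. Summed T cell markers ran from 8.26 to 23.9 FPKM in WT-host and from 18.1 to 35.6 FPKM in KO-host tumors, with WT-host tumor 2 alone at 23.9 FPKM and the other 5 WT-host tumors at most at 13.0 FPKM, below all KO-host tumors. All 5 T cell markers tested were above 0 in log2 fold change (median 1.14), and 2 passed the limits, *Cd3d* (1.46) and *Cd3g* (1.31). Summed natural killer and cytotoxic markers ran from 18.5 to 53.3 FPKM in WT and from 31.6 to 57.8 FPKM in KO hosts. All 7 were above 0 (median 0.76), with 1 past the limits (*Nkg7*, 1.35). Of 5 dendritic cell markers, 3 were above 0 (median 0.15) and 1 passed (*Itgax*, 1.00). Macrophage markers summed to 292 to 676 FPKM in WT and 546 to 882 FPKM in KO hosts, with 6 of 7 above 0 (median 0.46) and 0 past the limits. Neutrophil markers summed to 19.1 to 33.1 FPKM in WT and 6.71 to 57.9 FPKM in KO hosts, with 3 of 3 tested above 0 (median 0.41) and 0 past the limits. The part of these cells in the GTPase result was not tested. WT-host tumor 2 also stood apart in B cell markers, 23.2 FPKM against at most 1.47 FPKM in the other WT-host tumors, and without it all 10 GTPase genes still passed the limits, with a median log2 fold change of 2.14.

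The second question was whether host genotype changed the lung. In control lungs, *Irgm1* measured 16.4, 25.3, 28.0 and 12.9 FPKM in the 4 KO mice and 17.3, 18, 20.7 and 44.2 FPKM in the 4 WT mice. *Iigp1* measured 16.7, 23.5, 21.4 and 8.14 FPKM in KO and 13.4, 15, 13 and 29.6 FPKM in WT. *Gm4070*, the most abundant member in every lung group by its mean, measured 34.8, 54.8, 77.0 and 20.5 FPKM in KO and 44.1, 39.6, 36.4 and 69.7 FPKM in WT. The genotypes overlapped for all 10 genes, KO lung 4 held the lowest KO value for all 10, and WT lung 4 the highest WT value for all 10. KO lung 4 also had the lowest leukocyte (108 against 171 to 205 FPKM), natural killer and cytotoxic (23.3 against 48.4 to 72.6 FPKM), B cell (12.8 FPKM), macrophage (121 FPKM), dendritic cell (52.7 FPKM) and neutrophil (93.9 FPKM) marker sums of its group, and its T cell sum (22.3 FPKM) was not the lowest. The part of these cells was not tested. By edgeR, 0 of the 10 passed an FDR under 0.25 and a 1.5-fold change, limits that 0.231% of the 16029 genes tested passed, and log2 fold changes ran from -0.25 (*Irgm2*, SE 0.54) to 0.20 (*Gm4951*, SE 0.82).

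In lungs of tumor bearers, *Irgm1* measured 15.2, 24.9 and 84.9 FPKM (lowest, median, highest) in WT and 14.7, 22.7 and 88.5 FPKM in KO mice. *Iigp1* measured 14.0, 25.6 and 79.4 FPKM in WT and 12.5, 22.3 and 94.9 FPKM in KO mice. *Tgtp2* measured 11.4, 20.6 and 70.4 FPKM in WT and 15.5, 22.7 and 87.5 FPKM in KO mice. The ranges of all 10 genes overlapped and the medians lay near each other. Log2 fold changes ran from -0.07 (*Gm4951*, SE 0.59) to 0.19 (*Tgtp1*, SE 0.43), and 0 of the 10 passed the lung limits, which 0.212% of genes passed. At an unadjusted p under 0.05 the count was 0 in this comparison and in the controls, and DESeq2 also gave 0 in both.

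The third question was how the lung changed when a tumor was present. KO lungs at day 14 differed from KO control lungs by log2 fold changes of 0.41 (*Gvin1*, SE 0.38) to 0.92 (*Iigp1*, SE 0.52), with a median of 0.69, and WT lungs by 0.36 (*Gvin1*, SE 0.38) to 1.09 (*Gm4951*, SE 0.71), with a median of 0.56. None of the 10 passed the lung limits by edgeR or DESeq2, which 0.262% of genes passed in KO and 0.574% in WT lungs by edgeR. At an unadjusted p under 0.05 the count was 0 in KO and 1 in WT lungs, *Gm12185* (log2 fold change 0.72, FDR 0.421 by edgeR). Neutrophil markers moved with the presence of a tumor as well. Their log2 fold changes ran from 1.02 to 1.68 in KO lungs, where 1 of 4 passed the lung limits (*Cxcr2*), and from 1.34 to 2.05 in WT lungs, where 3 of 4 passed (*S100a8*, *S100a9* and *Cxcr2*). The part of these cells in the values of the GTPase genes was not tested. For the interaction of genotype with tumor, the differences ran from -0.27 (*Gm4951*, SE 1.01) to 0.30 (*Irgm2*, SE 0.68), and 0 of the 10 passed an FDR under 0.25 by edgeR or DESeq2, with 0 at an unadjusted p under 0.05, beside 0.0499% of all genes. None of the GBP, interferon pathway, type I interferon-induced, autophagy or other family lists had a gene past the limits in any of these lung comparisons by edgeR. DESeq2 called 1 interferon pathway gene, in the interaction, and no other gene of these lists. At an unadjusted p under 0.05, edgeR gave at most 2 genes of any list in any of these comparisons.

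**Figure D4:**
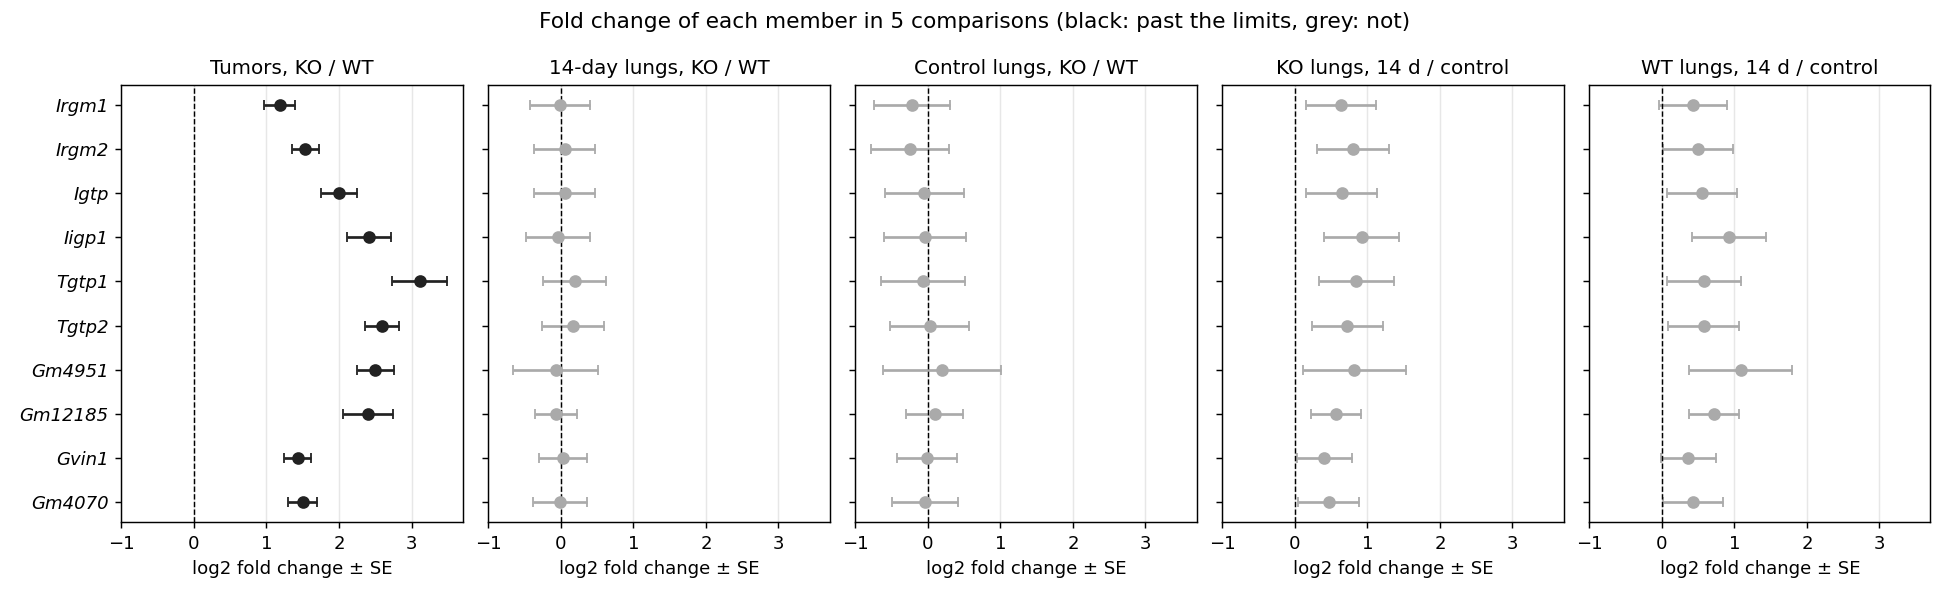
Log2 fold change (point) and SE (bar) of each gene by edgeR in the tumor comparison and 4 lung comparisons, black where past the limits and grey where not. All 10 tumor points lie between 1.18 and 3.11, and the lung points of KO over WT lie between -0.25 and 0.20 with SEs wider than their distance from 0.

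A few lungs set the spread. KO lung 2 at day 14 was above all other KO lungs of that day for 9 of the 10 genes (all but *Gm12185*), from 2.8 times (*Gvin1*) to 7.09 times (*Gm4951*) the median of the other 5. *Gm12185* was 2.53 times that median there. WT lung 5 at day 14 was highest for all 10, at 2.7 to 6.30 times, and WT control lung 4 for all 10, at 1.57 to 2.86 times. Their levels reached those of KO-host tumors for some members, such as *Irgm1* at 88.5 and 84.9 FPKM in the 2 lungs of day 14.

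In these same lungs the 14 type I interferon-induced genes stood higher still. All 14 were above every other sample of the group in KO lung 2 and in WT lung 5 of day 14, at medians of 9.25 and 6.50 times the other samples' median, and 13 of 14 in WT control lung 4, at a median of 3.35 times. *Ifit1*, an antiviral RNA-binding protein gene, measured 76.2 FPKM in KO lung 2 against 3.67 to 5.53 FPKM in the other KO lungs. Of 17 interferon pathway genes in the table, 7 were above all other KO lungs of day 14 in KO lung 2, among them *Usp18* at 5.13 times, *Stat2* at 4.35 times and *Irf9* at 3.33 times the median of the others. *Irf1* was closer to the rest, at 85.6 FPKM in KO lung 2 against 52.8 to 69.5 FPKM, and *Ifng* was 0.37 FPKM there and 0 in WT lung 5. KO lung 2 also had the lowest neutrophil marker sum of its group, 51.9 FPKM where the highest was 769 FPKM, and the lowest B cell sum, 14.3 FPKM. Its macrophage sum (159 FPKM, group median 138 FPKM) and fibroblast sum (251 FPKM) were the highest of its group. WT lung 5 had the lowest T cell marker sum, 21.6 FPKM, with a neutrophil sum of 439 FPKM above its group's median of 323 FPKM. WT control lung 4 had the highest leukocyte (242 FPKM), natural killer and cytotoxic (137 FPKM against at most 79.2 FPKM), macrophage (147 FPKM) and neutrophil (138 FPKM) sums of its group. The part of these cells was not tested.

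**Figure D5:**
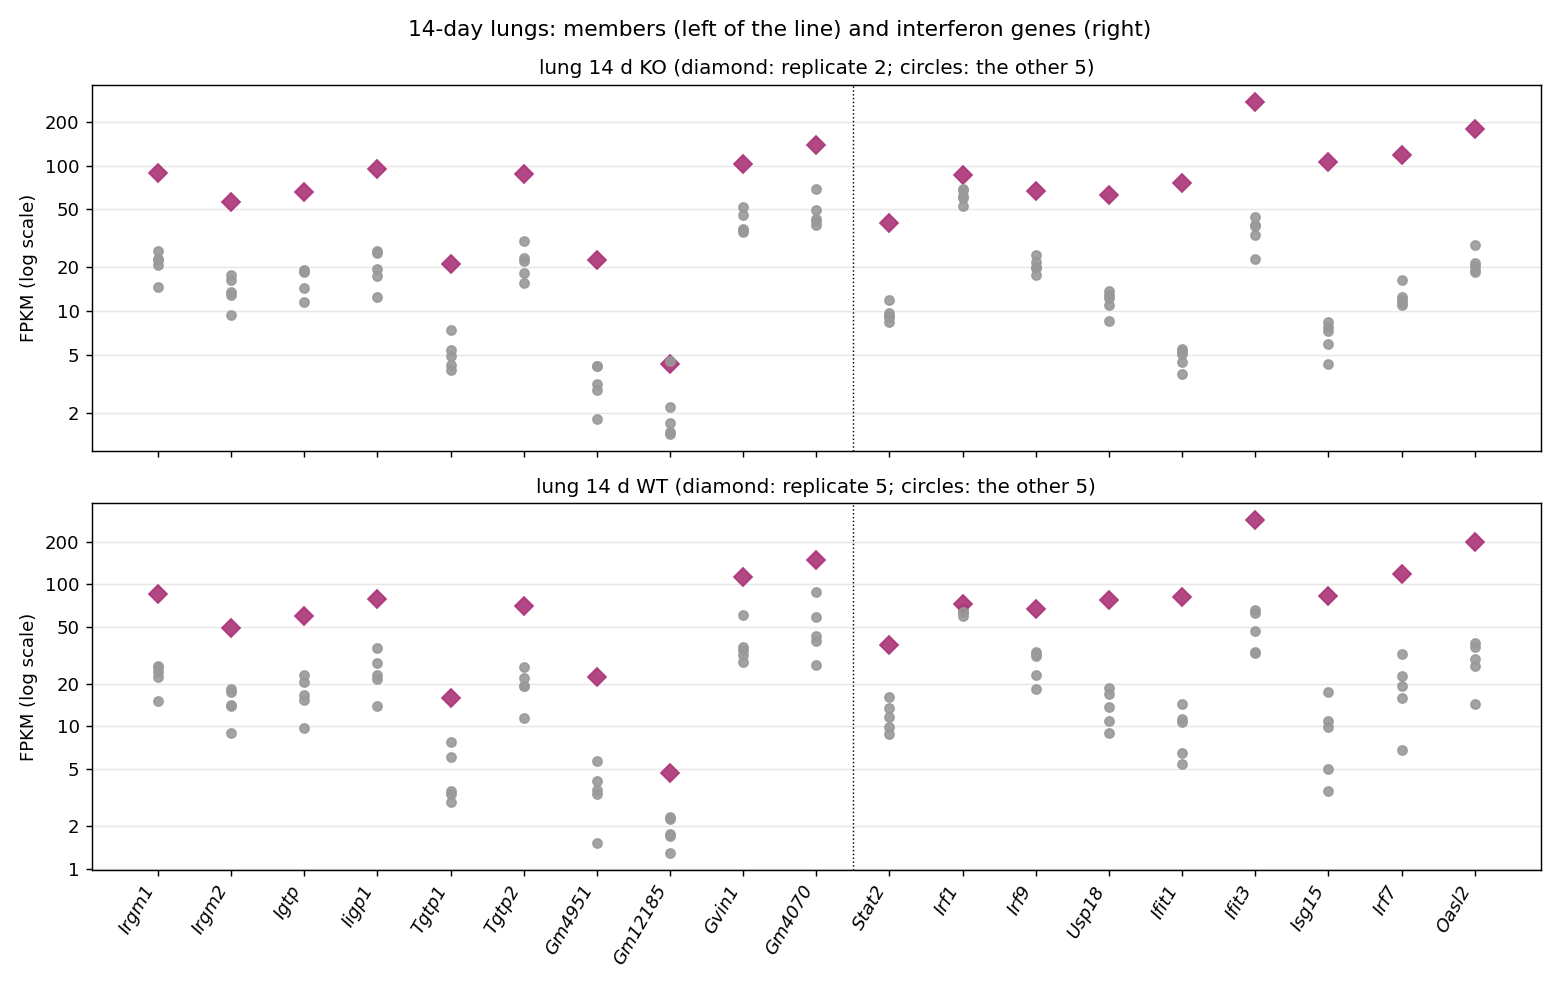
FPKM (log axis) of the 10 GTPase genes and of 9 interferon pathway and type I interferon-induced genes in lungs at day 14, KO above and WT below. Diamonds mark KO lung 2 and WT lung 5, and circles the other 5 samples. The diamonds top 9 and all 10 GTPase genes, for example *Iigp1* at 94.9 and 79.4 FPKM.

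With KO lung 2 and WT lung 5 both left out, an alternative chosen after their values were seen, the median log2 fold change of the 10 genes from control to day 14 was 0.11 in KO and 0.08 in WT lungs, and that of KO over WT at day 14 was -0.05. The count past the limits was 0 in each by edgeR. Each of these lungs alone moved the KO over WT median at day 14, to -0.53 without KO lung 2 and to 0.54 without WT lung 5.

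The last comparison tested whether the genotype difference of the tumor differed from that of the lung at day 14. It was larger in the tumor for all 10 genes, by 1.19 (*Irgm1*, SE 0.55) to 2.91 (*Tgtp1*, SE 0.67) on the log2 scale, and 8 of the 10 passed an FDR under 0.25 by edgeR, which 2.38% of the 16115 genes tested did in that direction. *Gm12185* had the lowest FDR, 0.0228 with a difference of 2.47 (SE 0.51), followed by *Tgtp2*, 0.0346 with 2.42 (SE 0.54), and *Tgtp1*, 0.0392 with 2.91. *Irgm1* (FDR 0.419) and *Irgm2* (1.48, SE 0.53, FDR 0.266) did not pass. The count was 10 with both high lungs left out, 4 without WT lung 5 alone, 5 without either KO-host tumor 5 or WT-host tumor 5, and 5 when limma was run on log2(FPKM + 1). The same contrast passed for 7 of 12 GBP entries and 6 of 16 interferon pathway genes, and for 0 of 14 type I interferon-induced and 0 of 10 autophagy genes, of which 0 had an unadjusted p under 0.05 and 0 passed by DESeq2.

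The levels also ordered differently in the 2 tissues. KO-host tumors had the highest median FPKM of the 6 groups for 8 of the 10 genes, and the highest mean for 7, all but *Gm12185*, *Gvin1* and *Gm4070*, whose highest means were in lungs at day 14. Without KO lung 2 and WT lung 5 the highest mean was in KO-host tumors for 8, *Gvin1* included. WT-host tumors had the lowest median for 6. Of the 50 steps between neighbouring groups in the order of their means, the ranges overlapped in 48, and the 2 that did not were the last steps down to WT-host tumors for *Gm12185* and *Gvin1*. The mean of every member was lower in WT-host tumors than in WT lungs at day 14, with log2 differences of -2.82 to -0.30 in FPKM and of -2.66 to -0.13 in CPM. WT lung 5 set this direction for 2 of them. Without it, 8 of the 10 were lower in WT-host tumors, with log2 FPKM differences down to -2.49 (*Gm12185*), and *Irgm1* (0.24) and *Igtp* (0.08) were higher there. The medians of *Irgm1* were 25 FPKM in WT-host tumors and 24.9 FPKM in WT lungs at day 14. *Gm12185* showed the widest of these gaps, 0.33 ± 0.185 FPKM (SD, n = 6) in WT-host tumors against 2.33 ± 1.23 FPKM (SD, n = 6) in WT lungs. The order within a tissue differed too, since *Iigp1* led in KO-host tumors while *Gm4070* (63.3 ± 38.0 FPKM in KO and 67.7 ± 45.0 FPKM in WT, SD, n = 6 each) and *Gvin1* led in the lungs of day 14. Levels of different genes are compared here only in FPKM, which accounts for length.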

How the data were processed

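RNA from 12 tumors and 20 lungs was sequenced paired end from stranded libraries. The authors aligned reads to mm10 with STAR and estimated gene expression with RSEM. The deposited expected counts, already whole numbers, and the deposited FPKM values were used. Depth was 4446323 to 8318711 counts per sample. Each animal gave 1 sample of a group, and whether a tumor and a lung came from the same animal is not stated.

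Members were all 10 listed symbols. Members and comparison lists were chosen with earlier results of these data known. Named non-members were those of the fixed lists and the 10 genes most like the mean member over tumors.

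Counts were tested with edgeR 4.0.16 (R 4.3.3; filterByExpr, TMM, glmQLFit, glmQLFTest, two-sided, Benjamini-Hochberg over all genes tested). Tumors were fitted alone, the 4 lung groups together, and tumors with 14-day lungs for the contrast of both. The limits for tumors (FDR under 0.05 and 2-fold) and for lungs at day 14 against controls (FDR under 0.25 and 1.5-fold) followed the study. The lung limits were also used here for KO against WT lungs, and an FDR under 0.25 for both contrasts of differences. SE is the log2 fold change over the square root of F. FPKM was plotted and described, and tested as an alternative with limma 3.58.1 on log2(FPKM + 1), a scale that understates changes of low genes. DESeq2 1.42.0 was another alternative. The small RNA genes *Rn7s1*, *Rn7s2* and *Rn7sk* held 58.1% to 70.2% of summed FPKM, so levels were also taken without them and as CPM. The fits were tested on simulated data. Promoter letters came from RefSeq on GRCm38.p6. Some results are not reported here. Motifs are written 5′ to 3′ with N for any base.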

Additional observations from a re-analysis of the deposited data

Results flagged for a closer look

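Single samples far from the rest of their group were found for 21 of the 60 sets of member and group values, by a test of the gap to the nearest sample that chance passes in about 1 in 20 groups of normally distributed values. In KO lung 2 of day 14 they were *Irgm1* (88.5 FPKM), *Irgm2* (56.2 FPKM), *Igtp* (66.2 FPKM), *Iigp1* (94.9 FPKM), *Tgtp1* (20.9 FPKM), *Tgtp2* (87.5 FPKM), *Gm4951* (22.3 FPKM), *Gvin1* (103 FPKM) and *Gm4070* (138 FPKM). In WT lung 5 of day 14 they were *Irgm1* (84.9 FPKM), *Irgm2* (49.3 FPKM), *Igtp* (59.8 FPKM), *Iigp1* (79.4 FPKM), *Tgtp1* (15.9 FPKM), *Tgtp2* (70.4 FPKM), *Gm4951* (22.4 FPKM) and *Gm12185* (4.72 FPKM). In WT control lung 4 they were *Irgm1* (44.2 FPKM), *Irgm2* (25.6 FPKM), *Iigp1* (29.6 FPKM) and *Gm4951* (6.41 FPKM). The members move together, so these are not 21 separate events. The gap was taken on FPKM without a log, and whether those values are normally distributed was not tested.

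The genotype difference of tumors exceeded that of lungs at day 14, by a test of the difference itself, for *Igtp* (1.94), *Iigp1* (2.45), *Tgtp1* (2.91), *Tgtp2* (2.42), *Gm4951* (2.56), *Gm12185* (2.47), *Gvin1* (1.39) and *Gm4070* (1.5), all on the log2 scale by edgeR.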

How the results depend on the processing

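In tumors, all 10 genes passed under each alternative but log2(FPKM + 1) with no filter, which left 9 (*Irgm1* lost, by limma). With *Tgtp1* and *Tgtp2*, and *Gvin1* and *Gm4070*, summed, 8 of 8 features passed. Leaving out 1 tumor at a time gave 10 each time, with median log2 fold changes of 2.0 to 2.34. In each lung comparison and the interaction the count was 0 under every alternative run, also without any 1 lung. Leaving out 1 lung at a time gave medians of -0.53 to 0.54 for KO over WT at day 14, -0.35 to 0.27 in controls, 0.11 to 1.0 for KO lungs at day 14 over controls, 0.08 to 0.91 for WT lungs and -0.43 to 0.60 for the interaction.

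For the tumor difference set against the lung difference, the count of 8 became 3 at an FDR under 0.05, 5 on log2(FPKM + 1), 3 on that scale with no filter, and 4 to 10 without 1 sample. It was 6 on log2(FPKM + 0.1), 7 with no filter on counts and 9 by DESeq2. The cause was not tested. Each difference stayed above 0 in all 330 values for single genes under alternatives.

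The labels do not say that replicate numbers mark shared animals, and whether they pair the samples was not settled. Same-numbered tumors of the 2 hosts had correlated deviations in 2 of 6 pairs (r over 0.1; range -0.33 to 0.15), and same-numbered tumors and lungs in 1 of 6 KO (range 0.03 to 0.15) and 0 of 6 WT pairs. Of the tumors, 4 of 6 KO and 2 of 6 WT were most like the lung of their own number. With a replicate block, 10 genes passed in tumors, 0 in each lung comparison and the interaction, and 9 in the contrast of tumor and lung.

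Among single lung values with no call, the sign changed in 56 of 217 under alternatives for KO over WT at day 14, 32 of 167 in controls, 2 of 200 and 4 of 199 for day 14 over controls in KO and WT, and 57 of 288 for the interaction. Depth limits *Gm12185* most, with 2 to 15 counts per WT-host tumor. Group differences in level kept within 1 SD of the reported ones without the abundant small RNA genes and in CPM.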
